A study of Mus musculus with 4 samples.

Results

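Sqstm1, Map1lc3a and Sh3glb1 encode 3 proteins of autophagy, and they were selected by symbol from the deposited table of read counts. All 3 were found among its 1000 genes, as Sqstm1 (NM_011018), Map1lc3a (NM_025735) and Sh3glb1 (NM_019464). The samples were frozen tibialis anterior muscle, a leg muscle, of mice of the Dmd Dup2 model, in which exon 2 of the dystrophin gene is duplicated. The treated group was given scAAV9.U7-ACCA, an adeno-associated viral vector whose U7 small nuclear RNA is meant to make the cell skip an exon, and the control group was untreated. The duplication was shared by both groups, and no wild-type muscle was among the samples, so values of healthy muscle were not available for comparison. In each group 1 library of mRNA (stranded total RNA) and 1 library of ribosome footprints were made from homogenates prepared with cycloheximide, which stops ribosomes in place. The labels state neither the dose, the age and sex of the animals, nor how many animals a library holds. The treatment comparison asked which mRNAs, and which mRNAs on ribosomes, differed after exon skipping.

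Autophagy encloses cytoplasm, damaged mitochondria or protein aggregates in a double membrane, the autophagosome, which then fuses with a lysosome where the cargo is degraded. Sqstm1 encodes p62, a receptor that binds ubiquitin-tagged cargo and links it to the membrane. Map1lc3a encodes a protein of the LC3 family, which is joined to a membrane lipid and is the anchor that receptors such as p62 bind. Sh3glb1 encodes Bif-1, also named endophilin B1, a membrane-bending protein that binds the Beclin 1 complex through UVRAG and takes part in forming the autophagosome. In skeletal muscle both too little and too much autophagy is known to harm fibres. p62 and lipid-joined LC3 are themselves degraded in the lysosome, so neither mRNA nor footprints measure the amount of these proteins or the rate of autophagy.

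With 1 library a group there was no spread between replicates, no test was made, and each 95% interval below covers counting error only. The listed genes held 4248818 reads in treated mRNA, 125236 in untreated mRNA, 1664122 in treated footprints and 3349015 in untreated footprints. Depth was therefore lowest by far in untreated mRNA, where the members had 17 to 53 reads, and this sets the width of their mRNA intervals. The muscle label was matched by its markers, since 17 of 18 muscle fibre genes were listed and held 60.3% of the listed reads in treated mRNA and 46.7% in untreated mRNA. A gene is called higher or lower in the treated library where the ratio passed 1.5-fold with an interval that left out 1 and at least 50 reads in the compared pair. Such a call compares 2 libraries and not the treatments.

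The start regions of Sqstm1 and Sh3glb1 are shown because the mRNA of both was called higher in the treated library. They are RefSeq windows of build GRCm38.p6, from 250 bases before to 50 bases after an annotated start, read 5′ to 3′ on the minus strand. Sqstm1 lies at chr11:50210771-50211070, and of the windows of Sh3glb1, the one at chr3:144720286-144720585 is printed. Map1lc3a is not shown. Capitals mark matches, on either strand, to the GC box GGGCGG and the TATA motif TATAAA.
Sqstm1: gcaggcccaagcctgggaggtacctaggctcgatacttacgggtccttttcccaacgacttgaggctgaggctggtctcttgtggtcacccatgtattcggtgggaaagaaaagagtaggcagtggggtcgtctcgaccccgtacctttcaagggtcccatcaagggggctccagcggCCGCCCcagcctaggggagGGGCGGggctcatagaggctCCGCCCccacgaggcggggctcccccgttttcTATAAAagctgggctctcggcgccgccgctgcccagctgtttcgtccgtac
Sh3glb1: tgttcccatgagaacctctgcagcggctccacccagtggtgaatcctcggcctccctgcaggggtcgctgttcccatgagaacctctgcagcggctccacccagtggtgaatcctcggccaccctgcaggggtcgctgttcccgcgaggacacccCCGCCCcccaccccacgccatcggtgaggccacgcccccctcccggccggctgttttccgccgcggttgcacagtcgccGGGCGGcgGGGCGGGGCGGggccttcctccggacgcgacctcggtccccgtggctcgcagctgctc
The Sqstm1 window held 3 GC boxes and 1 TATA motif, which began at position −1 counted from the RefSeq start. The Sh3glb1 window held 4 GC boxes, of which the last pair shares a base, and no TATA motif. Sh3glb1 has another RefSeq window, at chr3:144720120-144720419, with 5 GC boxes and no TATA motif, and which start its listed transcript uses is not known here. A GC box was present in 35.7% and TATAAA in 13.6% of all 32851 such windows. None of these windows held the E-box CACGTG, a core of sites bound by the lysosome regulator TFEB, or GTAAACA, bound by FoxO factors. These were present in 7.15% and 3.65% of windows. A match describes letters only, and these counts say nothing of whether a factor bound there in these muscles.

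Sqstm1, the cargo receptor, was higher in the treated libraries at both levels and by a similar amount. It had 2484 reads in treated mRNA and 53 reads in untreated mRNA, which are 735 and 338 CPM (counts scaled to library size) after TMM scaling, a method that sets the libraries to a common scale through the bulk of their genes. In footprints it had 1418 reads in treated muscle and 1279 reads in untreated muscle, or 862 and 376 TMM-scaled CPM. The treated value was the higher in mRNA and in footprints, and the counting intervals of treated and untreated levels did not overlap in either. The footprint ratio of Sqstm1 was 2.30 (95% interval 2.13 to 2.48), and 57 of 999 genes compared had a higher one. The mRNA ratio was 2.17 (1.66 to 2.91), with 184 of 996 genes above it. Translation efficiency, here the footprint ratio over the mRNA ratio, was 1.07 (0.804 to 1.41), so for Sqstm1 both ratios lay within counting error of each other under this scaling. The call in mRNA was lost when libraries were scaled by the total of the listed genes, at 1.38 (1.05 to 1.85), or by the authors' deposited constants, at 1.18 (0.899 to 1.58), while the footprint call remained, at 2.23 (2.07 to 2.41) and 1.90 (1.76 to 2.05). Under the same 2 scalings translation efficiency of Sqstm1 was called higher, at 1.63 (1.23 to 2.16) and 1.63 (1.23 to 2.15).

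Map1lc3a, the membrane anchor, had fewer footprints in treated muscle without a called difference in mRNA. It had 404 reads in treated mRNA and 17 in untreated mRNA, or 120 and 109 TMM-scaled CPM. In footprints it had 169 reads in treated muscle and 810 in untreated muscle, or 103 and 238 TMM-scaled CPM. The mRNA levels of treated and untreated muscle thus lay close together, whereas the untreated footprint library stood above the treated one. Its mRNA ratio was 1.10 (0.680 to 1.91), an interval that leaves room for a difference of either sign, and under the other scalings the ratio lay between 0.598 and 1.09 and was never called. Its footprints were 2.32-fold lower in the treated library (1.96 to 2.75), and 97 of 999 genes had a lower footprint ratio. Translation efficiency of Map1lc3a was 2.48-fold lower (1.49 to 4.11), and 157 of 995 genes lay below it. That call was lost with the listed totals and with the authors' constants, at 1.62-fold lower in both (0.976 to 2.69 and 0.978 to 2.69).

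Sh3glb1, the membrane-bending protein, differed in opposite directions in mRNA and footprints. It had 1881 reads in treated mRNA and 23 in untreated mRNA, or 557 and 147 TMM-scaled CPM. In footprints it had 61 reads in treated muscle and 574 in untreated muscle, or 37.1 and 169 TMM-scaled CPM. Treated muscle was thus the higher in mRNA and the lower in footprints, and in neither did the counting intervals overlap. By read number Sh3glb1 stood at place 184 of the 1000 genes in treated mRNA and at place 943 in treated footprints. In untreated muscle it stood at place 531 in mRNA and 530 in footprints. The mRNA was 3.79-fold higher in the treated library (2.52 to 6.0) and the footprints were 4.55-fold lower (3.49 to 6.02). Its translation efficiency was 16.8-fold lower (10.3 to 27.2), the lowest value of the 995 genes compared. Both mRNA ratio and translation efficiency rest on the same 23 untreated mRNA reads. The footprint ratio does not, and 18 of 999 genes had a lower one. All 3 calls for Sh3glb1 were the same under the 5 other scalings.

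**Figure D1:**
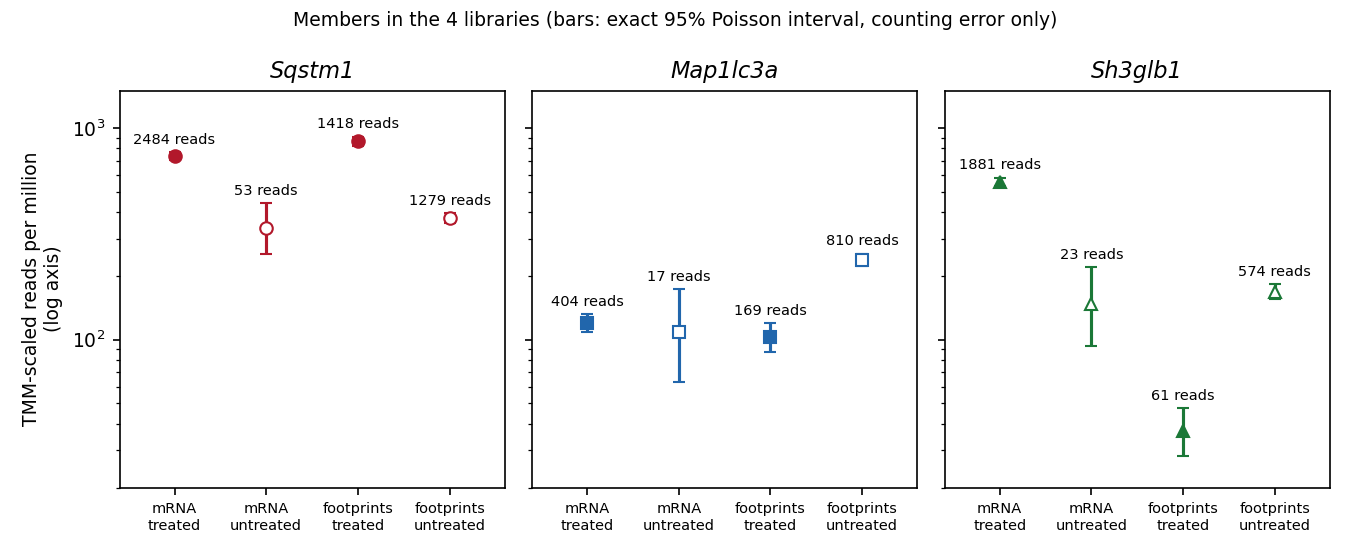
Levels of Sqstm1, Map1lc3a and Sh3glb1 in each of the 4 libraries, as TMM-scaled CPM on a log axis, with exact 95% Poisson intervals for counting error and the raw reads above each point. Filled points are treated and open points untreated muscle. Treated footprints of Sh3glb1 were the lowest point of the plot, at 37.1 CPM from 61 reads, and its treated mRNA stood at 557.

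The members were set against the rest of the table. Of the 3, 2 were called higher and 0 lower in mRNA, where 31.8% of the 996 genes compared were called higher and 24.8% lower. In footprints 1 was called higher and 2 lower, against 19.9% and 26.2% of the 999 genes compared. In translation efficiency 2 were called lower and 0 higher, where 31.9% of 995 genes were called lower and 26.0% higher. Calling was thus common in all 3 comparisons. The share of called genes that were higher depended on scaling: with TMM it was 56.2% for mRNA, 43.2% for footprints and 45.0% for translation efficiency, and with the authors' constants 16.8%, 23.8% and 73.8%. The combination seen in Sh3glb1, mRNA called higher with footprints called lower, was found in 58 of 995 genes, or 5.83%, while that of Sqstm1, both called higher, was found in 111 genes, or 11.2%. That of Map1lc3a, lower footprints without a call in mRNA, was found in 101 genes, or 10.2%.

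**Figure D2:**
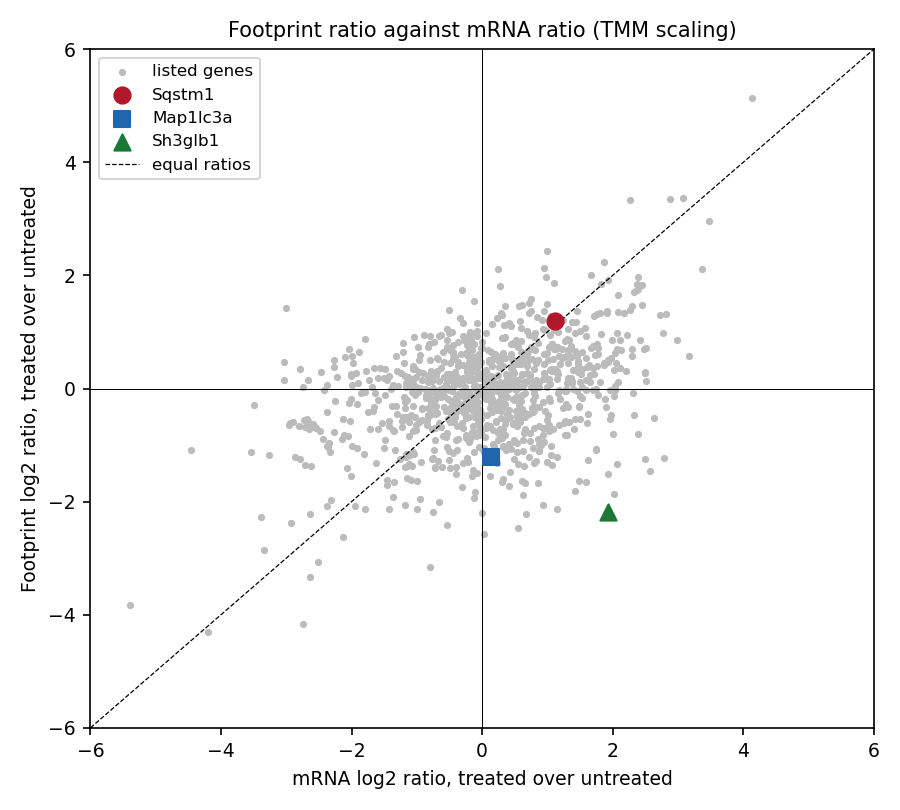
Footprint log2 ratio (treated over untreated) against mRNA log2 ratio for the listed genes (grey) and the 3 members under TMM scaling, where the dashed line marks equal ratios. Sqstm1 lay near the line at 1.12 in mRNA and 1.20 in footprints, Map1lc3a below it at 0.14 and −1.21, and Sh3glb1 well below it, at 1.92 and −2.18.

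Differences between members hold no library scaling, because both genes were read in the same libraries. On the log2 scale the footprint ratio of Sqstm1 exceeded that of Map1lc3a by 2.41 (2.14 to 2.67) and that of Sh3glb1 by 3.37 (2.98 to 3.77). Between Map1lc3a and Sh3glb1 the difference in footprint ratio was 0.97 (0.52 to 1.41). The members therefore differed from each other in footprints beyond counting error, in the order Sqstm1, Map1lc3a, Sh3glb1. In mRNA the order was another one. The mRNA ratio of Sqstm1 was below that of Sh3glb1, by −0.79 (−1.49 to −0.08), and above that of Map1lc3a by 1.01 (0.21 to 1.80). Expressed as shares of the footprints on the 3 members together, Sqstm1 held 86.0% (84.3 to 87.7, exact binomial interval) in treated muscle and 48.0% (46.1 to 49.9) in untreated muscle. Sh3glb1 held 3.701% (2.84 to 4.73) in treated and 21.6% (20.0 to 23.2) in untreated footprints. These shares follow read number and not molecules, since reads were not divided by transcript length.

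Footprints per mRNA read within a condition show on which side the translation efficiency of each gene was displaced. The assays have no common scale, so each gene was set against the median listed gene of the same condition, which had 0.483 footprints per mRNA read in treated muscle and 21.7 in untreated muscle. Sh3glb1 had 0.0324 footprints per mRNA read in treated muscle and 24.96 in untreated muscle. It was thus at 0.0677 of the median gene (0.0525 to 0.0873) in treated muscle, with 9 of 1000 genes below it, and near the median gene, at 1.13 times its value (0.745 to 1.70), in untreated muscle. Map1lc3a had 0.418 in treated and 47.7 in untreated muscle, which placed it at 0.868 of the median gene (0.726 to 1.04) in treated muscle and at 2.13 times the median gene (1.33 to 3.42) in untreated muscle. The share of genes below Map1lc3a was 43.1% in treated and 90.4% in untreated muscle. For Sqstm1 that share was 58.0% in both conditions. The low translation efficiency of Sh3glb1 thus came with an extreme place in treated muscle, and that of Map1lc3a with a high place in untreated muscle.

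**Figure D3:**
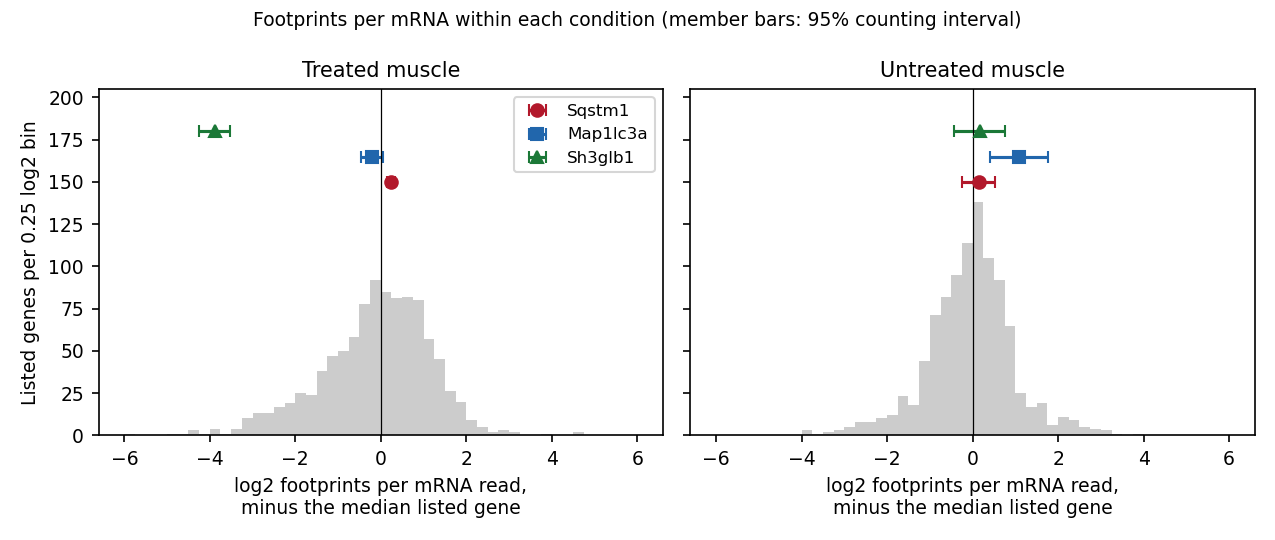
Distribution of log2 footprints per mRNA read over the 1000 listed genes, minus the median listed gene, in treated muscle (left) and untreated muscle (right), with the members and their 95% counting intervals. Sh3glb1 stood at −3.88 in treated muscle and 0.17 in untreated muscle, Map1lc3a at −0.20 and 1.09, and Sqstm1 at 0.24 and 0.14.

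The table lists the genes with the most untreated mRNA reads, down to 14, and the median mRNA ratio differed with that read number. Whether this choice of genes shaped the mRNA ratios was not tested. Genes with 14 to 19 untreated reads had a median mRNA log2 ratio of 0.33, and Map1lc3a, which is one of them, had 0.14. The median was 0.05 for 20 to 29 reads, where Sh3glb1 had 1.92, and −0.06 for 30 to 59 reads, where Sqstm1 had 1.12. The median translation efficiency of the same bins was −0.25, −0.02 and 0.00 on the log2 scale, against −1.31 for Map1lc3a, −4.07 for Sh3glb1 and 0.09 for Sqstm1. Map1lc3a has a close paralog, Map1lc3b, that is not analysed here. The handling of reads with several matches was not given in the sources used here.

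Next to Sh3glb1 at the low end of translation efficiency stood Ybx1, a cold-shock domain RNA-binding protein, at 15.8-fold lower (9.85 to 25.5), Ccng1, cyclin G1, at 15.6-fold lower (9.10 to 26.9), and Rplp0, a ribosomal stalk protein, at 14.4-fold lower (9.38 to 22.2). These intervals overlap widely with that of Sh3glb1, so its place as the lowest is not separated from theirs by counting error.

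Likeness of pattern was measured as the Euclidean distance, in log2 units, between genes over the 4 TMM-scaled libraries after each gene was centred on its own mean, among 995 genes. The 5 genes nearest to Sqstm1 were Gpd2 (0.17), Hspb8 (0.21), Nrap (0.26), Ddx3x (0.27) and Glul (0.28), where the median gene lay at 1.58. Nearest to Map1lc3a were Aebp1 (0.25), Capzb (0.26), Serpinb6c (0.27), Cd63 (0.31) and Ndufb10 (0.31), with the median gene at 1.49. Sh3glb1 had no such close neighbours: its nearest included Rps3a (0.57), Rplp0 (0.63), Mapkapk2 (0.64) and Tpt1 (0.71), and the median gene lay at 2.90. None of the members was among the 5 nearest of another. Sqstm1 and Map1lc3a were 1.86 apart, with 631 genes nearer to Sqstm1 than Map1lc3a was. Map1lc3a and Sh3glb1 were 2.72 apart, with 924 genes nearer to Map1lc3a. Sqstm1 and Sh3glb1 were 3.19 apart, with 948 genes nearer to Sqstm1.

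The other autophagy genes were taken from 6 lists by role, of which 19 of 129 symbols, the members included, were among the 1000 genes. In mRNA 11 of the 19 were called higher and 0 lower with TMM scaling, where 31.8% and 24.8% of all genes compared were. With the listed totals 3 were called higher and 5 lower, where 14.9% and 46.6% of all genes were. With TMM the median mRNA log2 ratio of the 19 was 0.69, against 0.06 over all genes compared. In footprints 2 were called higher and 4 lower (19.9% and 26.2% of all genes), with a median of 0.17 against −0.02. In translation efficiency 1 was called higher and 7 lower (26.0% and 31.9%), with a median of −0.45 against −0.11. With the authors' constants 2 of the 19 mRNAs were called higher and 6 lower, where 11.04% and 54.5% of all genes were. Independent of scaling, 14 of the 19 mRNA ratios lay above that of the median gene, as did 12 footprint ratios and 8 translation efficiencies. Macrophage markers differed between the same libraries, as given with the lysosome genes below, and in whole muscle fewer cells of a type and less RNA per cell cannot be told apart.

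Sqstm1 belongs to the list of receptors. All 5 of its listed genes were called higher and 0 lower in treated mRNA with TMM scaling (31.8% and 24.8% of all genes compared). With the listed totals or the authors' constants 0 were called either way. Of all genes compared, 14.9% were called higher and 46.6% lower with the listed totals, and 11.04% and 54.5% with the constants. With the authors' constants the mRNA ratios of Nbr1 (0.877) and Cltc (0.846) lay below 1. Tax1bp1, a ubiquitin-binding receptor, was 2.05-fold higher (1.25 to 3.61), Calcoco1, a receptor for endoplasmic reticulum and Golgi, 1.95-fold (1.15 to 3.59) and Nbr1, a relative of p62 with the same binding domains for ubiquitin and LC3, 1.62-fold (1.01 to 2.74). Cltc, at 1.56-fold (1.23 to 2.01), encodes the clathrin heavy chain, which acts in vesicle transport and is not itself a cargo receptor. In footprints 2 of 5 were called higher, Sqstm1 and Calcoco1, and 0 lower (19.9% and 26.2% of all genes compared). Calcoco1 had 264 footprint reads in treated and 267 in untreated muscle, a ratio of 2.05 (1.72 to 2.44). Nbr1 footprints had a ratio of 1.44 (1.22 to 1.69), under the 1.5-fold threshold, and those of Tax1bp1 1.25 (1.07 to 1.46). In translation efficiency 0 of 5 were called either way with TMM scaling, where 26.0% of all genes were called higher and 31.9% lower.

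Map1lc3a shares its list with Gabarap, of the related GABARAP branch. Both were called lower in treated footprints, where 26.2% of all genes compared were. Gabarap had 97 footprint reads in treated muscle and 412 in untreated muscle, 2.05-fold lower (1.64 to 2.59). Its mRNA, with 238 reads in treated and 16 in untreated muscle, was called neither way at 1.45-fold lower (0.815 to 2.40), and so was its translation efficiency, at 1.37-fold lower (0.794 to 2.37). Both listed LC3-family genes therefore lay below the median gene in footprints, while the 5 genes of the receptor list, Cltc included, lay above it, in ranks that no scaling moves. The enzymes that join LC3 to lipid, and Gabarapl1 and Gabarapl2, are not analysed here. Sh3glb1 was the only one of the 24 genes searched for autophagosome initiation that was listed.

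**Figure D4:**
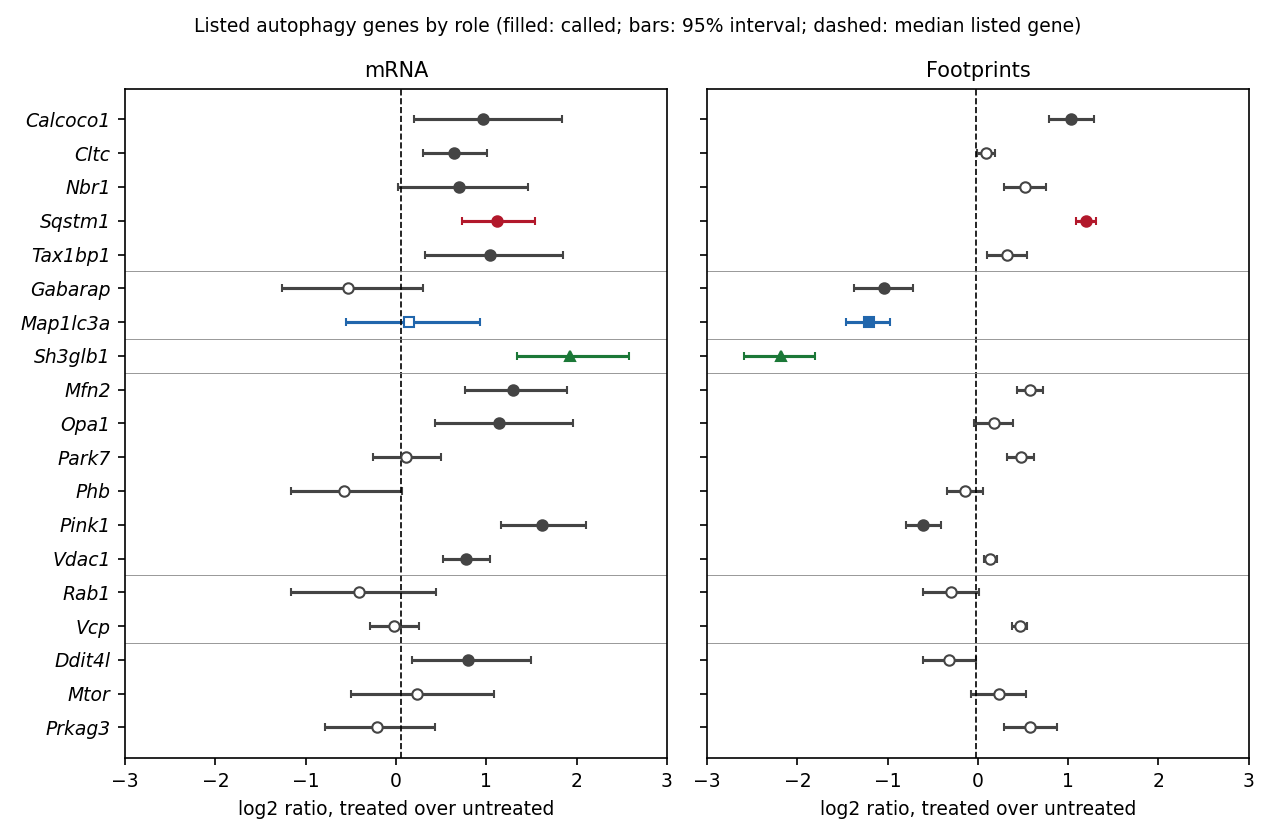
Treated over untreated log2 ratio in mRNA (left) and footprints (right) for the 19 listed autophagy genes, grouped from top to bottom as the receptor list, LC3 family, initiation, mitophagy, maturation and control, with 95% intervals. Filled points were called, and the dashed line is the median listed gene. The 5 genes of the receptor list, Cltc included, lay right of that line in both panels, and Sh3glb1 lay at 1.92 in mRNA and −2.18 in footprints.

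Mitophagy, the removal of mitochondria by autophagy, included a gene with the same combination as Sh3glb1. Pink1, a kinase that marks damaged mitochondria, had 2636 reads in treated and 40 in untreated mRNA, and 286 reads in treated and 900 in untreated footprints. Its mRNA was 3.06-fold higher (2.24 to 4.29), its footprints were 1.52-fold lower (1.33 to 1.74) and its translation efficiency was 4.59-fold lower (3.27 to 6.43). Of 6 listed genes in that list, 4 were called higher and 0 lower in mRNA (31.8% and 24.8% of all genes compared), 0 higher and 1 lower in footprints (19.9% and 26.2%) and 0 higher and 4 lower in translation efficiency (26.0% and 31.9%). Scaled by the authors' constants, 1 was called higher and 2 lower in mRNA, where 11.04% and 54.5% of all genes were. In translation efficiency 2 were then called higher and 1 lower, where 44.6% and 15.9% of all genes were. The mRNA ratio of Pink1 was 1.66 under these constants and still called. The footprint call of Pink1 was lost when the 20 most abundant genes were left out of the totals, at a ratio of 0.694. The others called higher in mRNA were Mfn2 at 2.46-fold (1.70 to 3.72) and Opa1 at 2.21-fold (1.35 to 3.89), both of mitochondrial fusion, and Vdac1, an outer membrane channel, at 1.71-fold (1.44 to 2.06). Under maturation, Vcp, an ATPase that extracts ubiquitinated proteins, and Rab1 were called neither way with TMM scaling. Both were called lower in mRNA with the listed totals and with the authors' constants, and Vcp was called higher in translation efficiency under 4 of the 5 other scalings. Under control, Mtor, the kinase that holds autophagy back, had ratios of 1.18 (0.705 to 2.13) in mRNA and 1.18 (0.95 to 1.45) in footprints. Ddit4l, an inhibitor of mTOR signalling, was 1.74-fold higher in mRNA (1.13 to 2.82) and 2.11-fold lower in translation efficiency (1.31 to 3.38), both calls being lost with the authors' constants.

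Lysosome genes act downstream of the members, and none of those listed was called higher in footprints. Of 14 listed, 2 were called higher and 2 lower in mRNA (31.8% and 24.8% of all genes compared), 0 higher and 7 lower in footprints (19.9% and 26.2%), and 1 higher and 5 lower in translation efficiency (26.0% and 31.9%). The last counts turned to 5 higher and 3 lower with the authors' constants, with the listed totals and with totals that left out the 20 most abundant genes. Under these scalings 44.6%, 44.6% and 37.4% of all genes compared were called higher, and 15.9%, 15.8% and 22.2% lower. Lamp1, the main lysosome membrane glycoprotein, showed the combination of Sh3glb1: its mRNA was 3.36-fold higher (2.32 to 5.07), its footprints 2.13-fold lower (1.89 to 2.42) and its translation efficiency 7.03-fold lower (4.76 to 10.4). Gaa, which degrades lysosomal glycogen, was 3.14-fold higher in mRNA (1.98 to 5.31) and had a footprint ratio of 1.17 (1.05 to 1.31). The mRNA of Lamp1 and Gaa was still called higher with the authors' constants, under which 8 lysosome genes were called lower in mRNA, where 54.5% of all genes were, and 7 in footprints, where 36.5% were. The proteases Ctss, Lgmn and Ctsb had footprints 3.90-fold (3.25 to 4.71), 2.21-fold (1.93 to 2.54) and 2.12-fold (1.98 to 2.27) lower, and the membrane protein Cd63 2.18-fold lower (1.87 to 2.54). Of 21 macrophage markers 5 were listed, none being at 0 reads. All 5 were called lower in mRNA and in footprints, where 24.8% and 26.2% of all genes compared were. They held 0.0197% of the listed reads in treated and 0.137% in untreated mRNA, and 0.0636% in treated and 0.144% in untreated footprints. Ctss stands on both lists. Of the 15 listed fibroblast markers 10 were called lower in mRNA and 3 higher, where 24.8% and 31.8% of all genes compared were. The 10 included 7 collagen genes, and the 3 were Gsn at 3.13-fold, Dcn at 3.02-fold and Fbn1 at 2.81-fold. In footprints 13 of the 15 were called lower and 0 higher (26.2% and 19.9%), Fbn1 being 3.11-fold lower (2.85 to 3.40). Together the 15 held 0.577% in treated and 2.65% in untreated mRNA, and 1.10% in treated and 3.77% in untreated footprints. The part of these cells in the values of the members and of the lysosome genes was not tested.

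Sqstm1 binds ubiquitin chains, and most listed genes of ubiquitin and its muscle ligases were called higher in treated footprints, as Sqstm1 was. Of 10 such genes, 8 were called higher and 0 lower in mRNA (31.8% and 24.8% of all genes compared), and 7 higher and 1 lower in footprints (19.9% and 26.2%). With the authors' constants these counts became 4 higher and 2 lower in mRNA, where 11.04% and 54.5% of all genes compared were. In footprints they became 6 higher and 1 lower, where 11.4% and 36.5% of all genes were. Ubb, which encodes ubiquitin, was 1.996-fold higher in mRNA (1.68 to 2.40) and 2.82-fold in footprints (2.73 to 2.91), the mRNA call being lost with the authors' constants. Trim63, a ubiquitin ligase of muscle atrophy, was 7.35-fold higher in mRNA (4.58 to 12.6) and 10.3-fold in footprints (9.26 to 11.4). Ubiquitin genes have near-identical repeats and copies, so their single values are uncertain.

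Selective autophagy of damaged sarcomere proteins works through the co-chaperone Bag3 and the small heat shock protein Hspb8, which hand cargo to p62. Hspb8, also the second nearest gene to Sqstm1 in pattern, was 2.14-fold higher in mRNA (1.41 to 3.43) and 2.05-fold in footprints (1.81 to 2.33). Bag3 footprints were 1.98-fold higher (1.74 to 2.24), from 484 reads in treated and 507 in untreated muscle, while its mRNA was called neither way at 1.43-fold lower (0.937 to 2.09). Of 9 listed genes of that list, 4 were called higher and 1 lower in mRNA (31.8% and 24.8% of all genes compared), and 3 higher and 0 lower in footprints (19.9% and 26.2%). With the authors' constants 0 were called higher and 4 lower in mRNA, Bag3 among the lower, where 11.04% and 54.5% of all genes compared were. The footprint counts were the same under these constants, where 11.4% of all genes were called higher and 36.5% lower. The third called in footprints was Hspb1, another small heat shock protein, at 5.41-fold (5.03 to 5.82).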

How the data were processed

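Tibialis anterior muscle of 2 groups of Dmd Dup2 mice gave 4 libraries, 1 per group and assay, with 50 bp reads per the labels' protocols. The authors deposited 1 table of 1000 genes with read counts per gene and library. The authors also deposited normalized read counts, which were read as CPM because each library's listed genes sum to less than a whole library would, and they were used only as an alternative scaling. The submitters' processing notes name Trimmomatic, STAR, edgeR and mm9, but no role or version for any. No source used here gives the counting tool or strand setting.

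Raw counts were scaled with TMM (edgeR 4.0.16, R 4.3.3) over all listed genes. Treated over untreated ratios have exact conditional binomial 95% intervals. For translation efficiency 0.5 was added to all counts, and its 95% interval is a normal one of the log ratio. A call needed 1.5-fold, an interval without 1 and 50 reads per pair. With 1 library a group, dispersion could not be estimated, so no edgeR test and no p-value was made. Reads carried no molecular identifiers, so intervals cover counting error only. Functions were tested on simulated counts with Python 3.11.15. Sequences came from RefSeq, GRCm38.p6, matched by symbol for 2 of the 3 members.

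The members and gene lists were chosen with earlier results of these data known. Named genes were the members, a fixed set of autophagy genes wherever listed, up to 5 called genes per list and comparison ranked by the interval bound nearest to 1, and the 5 nearest patterns. Vcp, Rab1, Mtor and the genes next to Sh3glb1 in translation efficiency were named after their values were seen. Some genes chosen this way are not reported here. Alternatives were 5 other scalings, including DESeq2 1.42.0 size factors, other minimums of reads and a 2-fold threshold.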

Additional observations from a re-analysis of the deposited data

How the results depend on the processing

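The members' ratios were recomputed under 5 other scalings and a 2-fold threshold. Of these 54 values 41 kept their call and stayed within the counting interval, and no called ratio changed direction. Other minimums of reads, none or 200 a pair, could not change a member, since their lowest pair held 421 reads. Map1lc3a mRNA, never called, was above 1 with TMM and DESeq2 and below 1 with the other 4 scalings. With the total of the listed genes, Sqstm1 mRNA was 1.38 and no longer called, Sh3glb1 mRNA 2.41, Sqstm1 translation efficiency 1.63 and now called, and Map1lc3a translation efficiency 0.618 and no longer called. With the upper quartile, Sqstm1 was 1.65 in mRNA and 2.12 in footprints. With the authors' constants, Sqstm1 was 1.18 for mRNA (no longer called), 1.90 for footprints and 1.63 for translation efficiency (now called), Map1lc3a 0.598 for mRNA, 0.358 for footprints and 0.616 for translation efficiency (no longer called), and Sh3glb1 mRNA 2.06. Scaling shifts every gene by the same amount, so ranks among genes do not move with it.

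The median mRNA log2 ratio was 0.06 with TMM, 0.04 with DESeq2, −0.60 for listed totals, −0.34 for the upper quartile, −0.22 when the 20 most abundant genes were left out and −0.82 for the authors' constants. Genes called higher then made up 56.2%, 55.6%, 24.2%, 35.7%, 42.2% and 16.8% of those called in mRNA, and 45.0%, 46.97%, 73.9%, 59.97%, 62.7% and 73.8% in translation efficiency. Of the 19 autophagy genes, 11, 10, 3, 5, 6 and 2 mRNAs were called higher and 0, 0, 5, 2, 1 and 6 lower, in the same order of scalings. Of all genes compared, 31.8%, 31.1%, 14.9%, 20.6%, 23.9% and 11.04% were called higher in mRNA. Those called lower were 24.8%, 24.9%, 46.6%, 37.05%, 32.7% and 54.5%. For translation efficiency 1, 1, 5, 4, 4 and 5 of the 19 were called higher and 7, 7, 2, 4, 4 and 2 lower. Of all genes compared, 26.0%, 27.2%, 44.6%, 34.8%, 37.4% and 44.6% were called higher in translation efficiency. Those called lower were 31.9%, 30.75%, 15.8%, 23.2%, 22.2% and 15.9%. Footprints of the 19 called higher numbered 2, 4, 2, 2, 5 and 2, where 19.9%, 20.8%, 18.5%, 15.9%, 23.4% and 11.4% of all genes were. At 2-fold 6 mRNAs of the 19 were called higher (21.5% of all genes), and 4 translation efficiencies lower (22.3% of all genes). The 23 and 17 untreated mRNA reads of Sh3glb1 and Map1lc3a limit their mRNA ratios and translation efficiencies. No paired analysis was possible because each group holds 1 library, and for the same reason no replicate could be left out.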

Other observations

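Next to autophagy, the proteasome is the other route by which cells degrade ubiquitin-tagged proteins. Of 20 listed proteasome genes, 4 were called higher and 3 lower in mRNA, and 3 higher and 1 lower in footprints, where 31.8% and 24.8% of all genes compared were called higher and lower in mRNA and 19.9% and 26.2% in footprints, with a median TMM-scaled footprint log2 ratio of 0.32 against −0.02 over all genes compared. With the authors' constants 0 were called higher and 11 lower in mRNA, where 11.04% and 54.5% of all genes were. In footprints 1 was then called higher and 3 lower, where 11.4% and 36.5% of all genes were. Psmb3, a subunit of the proteolytic core, had footprints 2.07-fold higher (1.78 to 2.41), and Psmd6, of the regulatory cap, had footprints 1.94-fold lower (1.67 to 2.26).

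Sqstm1 is also known as a gene induced by oxidative stress through NRF2. Of 10 listed genes of that response, 1 was called higher and 1 lower in mRNA, and 2 higher and 1 lower in footprints, against 1 higher and 6 lower, and 1 higher and 3 lower, with the authors' constants. These counts lay at or below the shares over all genes under the same scaling, apart from the 6 of 10 lower, which stood near 54.5%. Gstm1, a glutathione transferase, had footprints 2.76-fold higher (2.45 to 3.11) and Gstp1 1.63-fold higher (1.49 to 1.78), the call of Gstp1 being lost with those constants. Fth1, the ferritin heavy chain, whose translation is known to be held back by an iron-responsive element, was 3.64-fold higher in mRNA (2.90 to 4.63) and 2.73-fold lower in translation efficiency (2.13 to 3.48). In translation efficiency 3 of the 10 were called higher, Gstm1 and Gstp1 among them, and 2 lower (26.0% and 31.9% of all genes compared). With the authors' constants 6 were called higher and 1 lower (44.6% and 15.9%).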
